A study of Mus musculus with 4 samples.

Results

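The canonical-type Wnt ligands and Porcn are 9 genes for secreted Wnt proteins (Wnt2, Wnt2b, Wnt3, Wnt3a, Wnt4, Wnt6, Wnt7a, Wnt7b and Wnt8a) and the gene for the enzyme that acylates them. They were taken by symbol, 10 of the 53397 genes measured, and each symbol matched a single gene. RNA-seq was performed on the dissected posterior epiblast, the progenitor region at the posterior end of the mouse embryo, at E7.5, when head structures are laid down, and at E8.5, when the trunk forms. All embryos were wild type, and the labels name no treatment. Each stage had 2 libraries, each from a separate pool of tissue, and the number of embryos per pool is not given in the sources used here. The comparison asked how the Wnt ligands available to the axial progenitors, and the enzyme that modifies them, differed between the stages.

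Wnt proteins are secreted signals that bind Frizzled receptors. Together with the co-receptors Lrp5 and Lrp6, the canonical-type ligands stabilize beta-catenin, which enters the nucleus and activates target genes with Tcf and Lef factors. In the early mouse embryo this pathway is known for the induction of the primitive streak and for the growth of the body axis and its mesoderm. Porcn, an acyltransferase of the endoplasmic reticulum, attaches palmitoleate to a conserved serine of the ligand. The carrier Wls recognizes the lipid and takes the ligand to the cell surface, where the lipid also contacts Frizzled.

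The coding sequence round that serine is shown because it is the feature that joins the ligands to Porcn. It was cut from the GENCODE vM21 transcripts (GRCm38) as 24 bases of the coding strand, with the serine codon in capitals, for 8 ligands. A single such site was found in each of them, and also in Wnt8a, at codon 186 of 354, whose sequence is not shown.
Wnt2: tgtcatggtgtgAGTggctcctgt
Wnt2b: tgtcacggtgtgAGTggctcctgt
Wnt3: tgccacgggttgTCCggcagctgc
Wnt3a: tgccacgggctaTCTggcagctgt
Wnt4: tgtcacggggtgTCGggctcctgc
Wnt6: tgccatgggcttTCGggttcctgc
Wnt7a: tgccatggtgtgTCAggctcctgt
Wnt7b: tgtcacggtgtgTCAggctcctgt
The serine is codon 209 of 352 in Wnt3a and codon 212 of 355 in Wnt3. Of the 24 bases, 12 were identical in all 8 ligands. The closest pair was Wnt2 and Wnt2b, which differed at 1 base, followed by Wnt7a and Wnt7b, which differed at 2. Wnt3 and Wnt3a differed at 4, and the most distant pairs differed at 10. The genes of each of the 2 closest pairs moved the same way between the stages. Of the pairs whose sites differed at 3 bases, Wnt4 and Wnt7b moved the same way and Wnt2b and Wnt7b in opposite directions.

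All 10 genes differed between the stages, and they split by direction. At E8.5, 4 ligands (Wnt4, Wnt6, Wnt7a and Wnt7b) were higher, while 5 ligands (Wnt2, Wnt2b, Wnt3, Wnt3a and Wnt8a) and Porcn were lower, each at an adjusted p under 0.05 (limma on log2(value + 1), adjusted over the 13903 genes that reached a value of 1 in 2 or more libraries). By the same test 25.6% of all genes tested were higher and 26.4% were lower, so more than every second gene passed. With an added limit of a log2 fold change of at least 1 in size, the members were 3 higher (Wnt6, Wnt7a and Wnt7b) and 4 lower (Wnt2, Wnt2b, Wnt8a and Porcn), against 4.48% and 6.35% of all genes tested. The 10 genes had a median log2 fold change of -0.92, and all genes tested had -0.01. In none of the 10 did the values of the stages overlap, but the share of all genes without overlap was not counted. Genes with no call could also lack overlap, such as Cdx2 (259 and 227 at E7.5, against 260 and 260 at E8.5). Wnt4 and Wnt7b reached the minimum value only in the E8.5 libraries, so they could be tested only because they were higher there. The other 8 reached the minimum value in at least 1 library of each stage. Wnt2b did so in only 1 E8.5 library (0.892 and 1.51), so it passed the filter through E7.5, where it was higher.

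The values are normalized counts, which are reads per gene scaled by the authors to a common library size, so that a value of 1 stands for about 18 to 20 reads. Between 18488218 and 19493342 reads per library were assigned to genes, and every value was a whole number of reads within 0.0001. The most abundant entry, CT010467, took 25.6% of the value in E7.5 replicate 1 and 18.5% to 18.9% in the other libraries. In 2 libraries against 2, an exact permutation test of a single value cannot go below p = 0.333, so significance rests on the fit across all genes. Intervals given with a fold are 95% intervals for counting error only, since reads without molecular identifiers are not independent molecules. In bulk tissue, fewer cells of a type and less RNA per cell cannot be told apart.

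**Figure D1:**
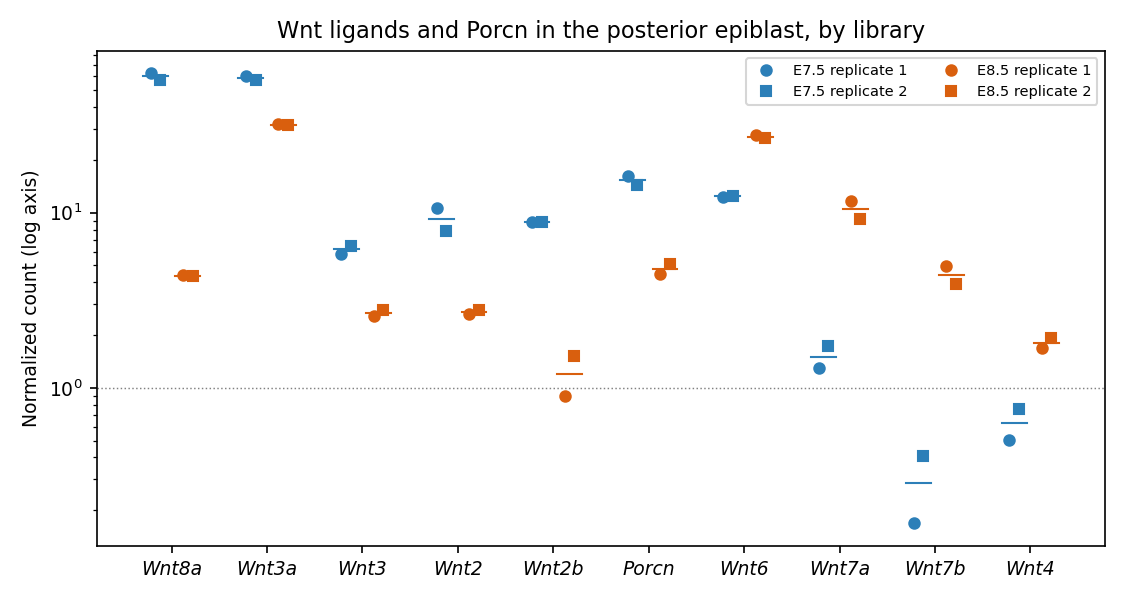
Normalized counts (log axis) of the 9 Wnt ligands and Porcn in the posterior epiblast, with blue points for the 2 E7.5 libraries, orange points for the 2 E8.5 libraries, horizontal bars for stage means and a dotted line at the minimum value of 1. The stages overlap for none of these genes, which was not set against the share over all genes. Wnt8a spans the widest distance among the genes that fell, from means of 60.0 to 4.37.

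Wnt8a (ENSMUSG00000012282.2), a ligand of the posterior epiblast and primitive streak, lies on the forward strand at chr18:34542313-34548273. Its normalized counts were 62.6 and 57.4 at E7.5, against 4.41 and 4.33 at E8.5. Both E7.5 libraries were thus far above both E8.5 libraries, and the mean fell from 60.0 ± 3.64 to 4.37 ± 0.0526 (SD, n = 2). This was a 13.7-fold lower level at E8.5 (11.7 to 16.1), read from 2245 and 167 reads. On the log2 scale the change was -3.50 ± 0.11 (SE, limma, adjusted p = 1.38e-12). Its fold change stood at percentile 0.115 of all genes tested, counted from the most negative.

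Wnt3a (ENSMUSG00000009900.7, reverse strand, chr11:59248033-59290752) is known for its part in trunk and tail mesoderm. Normalized counts of 60.6 and 56.9 at E7.5, against 31.9 and 31.6 at E8.5 were measured. The E8.5 libraries agreed closely with each other and lay below both E7.5 libraries. The mean fell from 58.7 ± 2.61 to 31.7 ± 0.224, a 1.85-fold lower level (1.72 to 1.98) over 2200 and 1213 reads. The log2 fold change was -0.87 with a 95% interval from -1.04 to -0.70 (limma, adjusted p = 3.8e-07). Thus Wnt3a passed the test for a difference while its fold remained under the limit of 1 on the log2 scale.

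Wnt3 (ENSMUSG00000000125.5, forward strand, chr11:103774150-103817957), needed in the mouse for the primitive streak to form, was far less abundant than its paralog at both stages. Its normalized counts were 5.85 and 6.49 at E7.5, against 2.57 and 2.77 at E8.5. All values at E8.5 were below those at E7.5, and the level was 2.32-fold lower (1.83 to 2.95). The log2 fold change was -0.97, with a 95% interval from -1.30 to -0.63 (limma, adjusted p = 1.29e-04). On the recovered reads, edgeR gave -1.20, past the fold limit.

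The level of Wnt3a over that of Wnt3 was 10.4 and 8.77 in the E7.5 libraries and 12.4 and 11.4 in the E8.5 libraries. The ratio was higher in each E8.5 library than in each E7.5 library (exact permutation test, two-sided, p = 0.333, the smallest possible). By normalized count per kb of exon, which allows levels of genes of different length to be compared, the ratios were 11.5 and 9.77 at E7.5, against 13.8 and 12.7 at E8.5. Wnt3a was thus the more abundant of the pair in every library of either stage.

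Wnt2 (ENSMUSG00000010797.6, reverse strand, chr6:17988940-18030585), a ligand known from the allantois and the placental vessels, had normalized counts of 10.6 and 7.81 at E7.5, against 2.62 and 2.77 at E8.5. The E7.5 libraries differed from each other by more than counting error (chi-square 8.09 on their reads, where counting error alone gives about 1), yet both stayed above E8.5. Its level was 3.39-fold lower at E8.5 (2.71 to 4.27), with a log2 fold change of -1.45 ± 0.17 (SE, limma, adjusted p = 4.33e-06). Wnt2b (ENSMUSG00000027840.5, reverse strand, chr3:104945272-104961921), its paralog, stood at 8.82 in each E7.5 library and at 0.892 and 1.51 at E8.5. Its level was 7.33-fold lower (5.37 to 10.2), with a log2 fold change of -2.17 ± 0.18 (SE, limma, adjusted p = 9.25e-08). The ratio of Wnt2 to Wnt2b was 1.20 and 0.885 at E7.5, against 2.94 and 1.83 at E8.5, again without overlap (exact permutation test, two-sided, p = 0.333).

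Wnt6 (ENSMUSG00000033227.7, forward strand, chr1:74771892-74785322), a ligand known from the surface ectoderm, was the most abundant of the genes that rose. Its normalized counts were 12.3 and 12.5 at E7.5, against 27.7 and 26.7 at E8.5. Replicates lay close together at each stage, and the mean rose from 12.4 ± 0.194 to 27.2 ± 0.689, a 2.19-fold higher level (1.96 to 2.45). The log2 fold change was 1.07 ± 0.11 (SE, limma, adjusted p = 7.82e-07). Relative to Wnt3a, Wnt6 stood at 0.202 and 0.220 at E7.5, against 0.867 and 0.845 at E8.5.

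Wnt7a (ENSMUSG00000030093.7, reverse strand, chr6:91363981-91411363), known for dorsal patterning of the limb, had normalized counts of 1.29 and 1.72 at E7.5, against 11.7 and 9.24 at E8.5. Both E8.5 libraries were well above both E7.5 libraries, although they differed from each other by more than counting error (chi-square 5.52). The level was 6.89-fold higher (5.21 to 9.26), read from 57 and 400 reads, and the log2 fold change was 2.19 ± 0.17 (SE, limma, adjusted p = 6.43e-08).

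Wnt7b (ENSMUSG00000022382.15, reverse strand, chr15:85535437-85582473), known for its role in the placenta and the lung, was at 0.169 and 0.406 at E7.5, against 4.93 and 3.92 at E8.5. At E7.5 these values rest on 3 and 8 reads, and at E8.5 on 94 and 75. Low as it was, the gene showed the largest fold among those that rose, 15.1 (8.22 to 30.8). The added 1 in the log2 scale shrinks the change of a gene at this level, to 2.07 ± 0.18 (SE, limma, adjusted p = 2.59e-07), while edgeR on the reads gave 3.90. An antisense gene, AU022754, shares 560 bases of exon with Wnt7b, and reads of such a pair cannot be told apart without strand. That gene was listed at 0.0562, 0, 0.262 and 0 in the 4 libraries, far below the values of Wnt7b at E8.5.

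Wnt4 (ENSMUSG00000036856.4, forward strand, chr4:137277489-137299726), known for kidney and ovary development, was at 0.506 and 0.761 at E7.5, against 1.68 and 1.93 at E8.5. It was higher in each E8.5 library than in each E7.5 library, 2.82-fold (1.75 to 4.70), from 24 and 69 reads. Its change of 0.78 ± 0.18 was the smallest of the 10 genes on this scale (SE, limma, adjusted p = 0.00199), and edgeR gave 1.50. Of the stretches of 75 bases in its transcript, the length of the reads, 100 of 4107 also occur in other genes, so a small part of its reads could have been counted elsewhere or not at all. No such stretch was found for the other members, other than the 140 of 4894 that Wnt7b shares with AU022754.

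**Figure D2:**
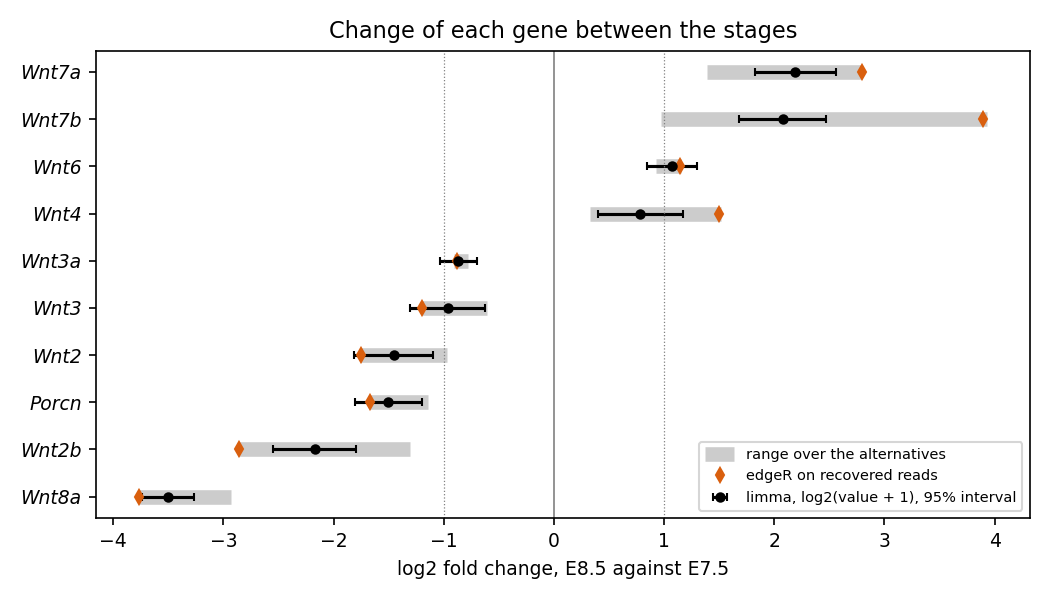
Log2 fold change of each gene, E8.5 against E7.5 (black points with 95% intervals from limma), beside the value from edgeR on recovered reads (orange diamonds) and the range over all alternative settings (grey bars), with dotted lines at a log2 fold change of 1 in either direction. No grey bar crosses 0, and the widest belongs to Wnt7b, whose value was 2.07 in limma and 3.90 in edgeR.

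The summed level of the 9 ligands was lower at E8.5. The sums of normalized counts were 163 and 153 at E7.5, against 88.4 and 84.7 at E8.5, which is 1.82-fold lower (158 ± 6.93 against 86.6 ± 2.57, SD, n = 2). The libraries of the stages did not overlap, which gave an exact permutation p of 0.333, two-sided, the smallest possible for 2 against 2. By normalized count per kb of exon the sum went from 70.2 ± 3.50 to 33.4 ± 0.884.

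Behind the lower sum, the ligands exchanged places. Wnt8a made up 38.0% of the summed value at E7.5 and 5.05% at E8.5. Wnt6 went from 7.86% to 31.4%, Wnt7a from 0.961% to 12.1% and Wnt7b from 0.185% to 5.10%, and none of these shares overlapped between the stages. By contrast the share of Wnt3a was 37.2% in each E7.5 library and 36.1% and 37.3% at E8.5, so the stages overlapped (exact permutation p = 1). Its own level fell by about as much as the sum did. Per kb of exon Wnt3a made up 30.3% in the E7.5 libraries and 34.5% in the E8.5 libraries, without overlap, so the direction for this ligand depends on the scale.

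The remaining ligands held small shares. Wnt2 went from 5.82% to 3.12%, Wnt2b from 5.60% to 1.40% and Wnt3 from 3.92% to 3.09%, whereas Wnt4 went from 0.404% to 2.09%. Wnt3a and Wnt8a together held 75.2% of the summed value at E7.5 and 41.7% at E8.5, and Wnt3a and Wnt6 together 45.1% and 68.1%. The leading pair of ligands thus changed from Wnt8a with Wnt3a to Wnt3a with Wnt6. Wnt3a over Wnt8a stood at 0.969 and 0.991 in the E7.5 libraries and at 7.24 and 7.29 in the E8.5 libraries.

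**Figure D3:**
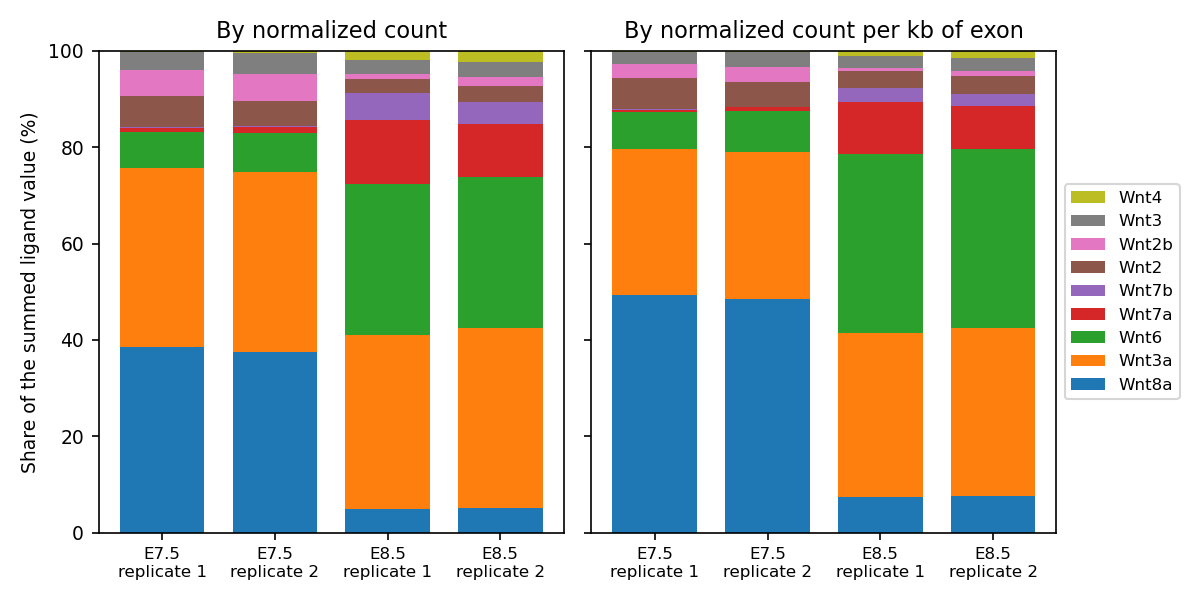
Share of each of the 9 ligands in their summed value (%), per library, by normalized count (left) and by normalized count per kb of exon (right). The blue block of Wnt8a shrinks from 38.0% to 5.05% (left) and from 49.0% to 7.50% (right) between the stages, while the green block of Wnt6 grows from 7.86% to 31.4% and from 8.07% to 37.1%.

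Levels of different genes were put in order by normalized count per kb of exon. At E7.5 Wnt8a led with a mean of 34.4 per kb, followed by Wnt3a (21.3), Wnt6 (5.65), Wnt2 (4.09), Wnt2b (2.10), Wnt3 (2.01), Wnt7a (0.476), Wnt4 (0.151) and Wnt7b (0.0586). Only Wnt2b and Wnt3 had overlapping replicates among the neighbours in this order. At E8.5 Wnt6 led with 12.4 per kb, and after it stood Wnt3a (11.5), Wnt7a (3.30), Wnt8a (2.50), Wnt2 (1.20), Wnt7b (0.903), Wnt3 (0.868), Wnt4 (0.430) and Wnt2b (0.286). Here Wnt7b and Wnt3 overlapped, and no other neighbours did. Wnt8a thus moved from the first place to the fourth, and Wnt7a from the seventh to the third.

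Porcn (ENSMUSG00000031169.13, reverse strand, chrX:8193848-8206525), the acyltransferase on which lipid attachment to these ligands depends, fell as well. Its normalized counts were 16.3 and 14.4 at E7.5, against 4.46 and 5.06 at E8.5, without overlap. The level was 3.21-fold lower (2.71 to 3.81), from 573 and 182 reads, and the log2 fold change was -1.50 ± 0.14 (SE, limma, adjusted p = 4.67e-07). Among the genes tested, its level stood at percentile 55.8 at E7.5 and at 30.9 at E8.5, so it was still measured at E8.5, with 85 and 97 reads. Per 100 of summed ligand value, Porcn stood at 9.71 ± 0.446 at E7.5, against 5.51 ± 0.657 at E8.5 (SD, n = 2), without overlap. This ratio was lower in each E8.5 library than in each E7.5 library (exact permutation test, two-sided, p = 0.333, the smallest possible).

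The other genes that make, carry or remove the lipid on Wnt proteins moved in both directions. Of 21 listed, 18 were tested, and none of these had as large a log2 fold change as Porcn. Among them, 8 were higher, 4 were lower and 6 were not called, with a median log2 fold change of 0.07. Notum, the secreted enzyme that takes the lipid off again, rose from 6.04 ± 0.363 to 10.5 ± 0.963 (log2 fold change 0.71). Scd1, which makes monounsaturated fatty acids of the kind Porcn transfers, rose from 39.8 to 60.6 (0.60). Snx3, which works with the retromer to recycle Wls, fell from 256 to 134 (-0.93), and the retromer subunit Vps29 from 143 to 120 (-0.25). Named for their roles after their values were seen, the carrier Wls rose from 317 to 446 (0.49) and the desaturase Scd2 from 387 to 537 (0.47).

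In the enzyme family of Porcn, the membrane-bound O-acyltransferases, 8 of 10 other members were tested. Of these, 2 were higher, 4 were lower and 2 were not called, with a median log2 fold change of -0.28. Hhat, which attaches palmitate to Hedgehog proteins, rose from 3.83 to 9.68 (1.14), and the lysophospholipid acyltransferase Mboat2 from 57.5 to 73.1 (0.34). Soat2, which esterifies cholesterol in liver and intestine, fell from 39.8 to 2.91 (-3.38) and its relative Soat1 from 348 to 177 (-0.97). The acyltransferases for Wnt and for Hedgehog proteins thus moved in opposite directions.

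**Figure D4:**
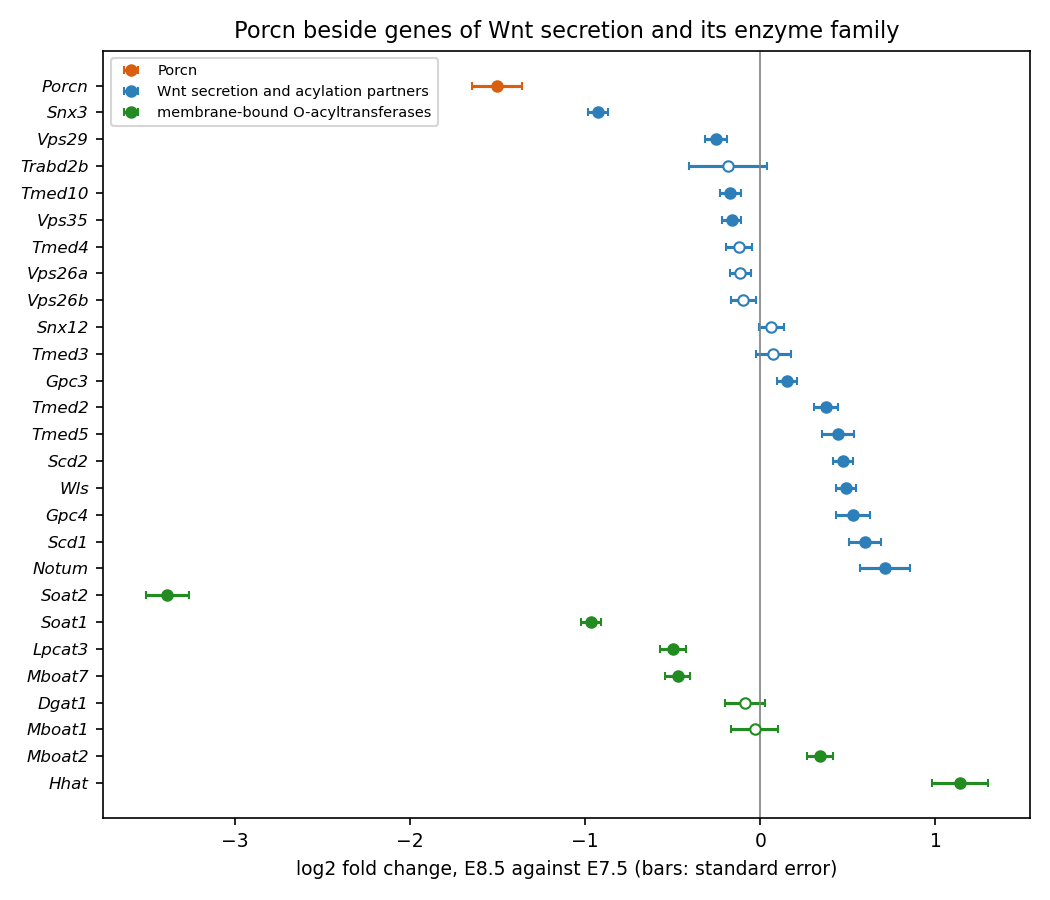
Log2 fold change, E8.5 against E7.5, with standard errors from limma, of Porcn (orange), genes of Wnt secretion and acylation (blue) and membrane-bound O-acyltransferases (green), where filled points have an adjusted p under 0.05 and open points do not. Porcn, at -1.50, lies left of all the blue points, and among the green points Soat2 alone lies further left, at -3.38.

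The genes whose profile over the 4 libraries was most like that of Porcn were sought among 8631 tested genes with a mean value of at least 10, by the root mean square difference of centred log2 values. These were Slc16a13 (0.0280), a member of the monocarboxylate transporter family, Tex264 (0.0338), a receptor for autophagy of the endoplasmic reticulum, and Fgf15 (0.0423), a secreted growth factor. Slc16a13 was at 48.2 and 40.5 at E7.5, against 13.9 and 15.6 at E8.5. With 4 libraries in 2 stages, likeness of profile mostly means a like fold between the stages.

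The other Wnt ligands that could be tested were mostly higher at E8.5. Of 10, 4 were tested and 3 were higher. Wnt5a, the ligand best known for signalling without beta-catenin, had normalized counts of 85.7 and 89.0 at E7.5, against 219 and 216 at E8.5 (log2 fold change 1.31 ± 0.06, SE). Wnt5b was at 40.5 and 37.7 and then at 105 and 112 (1.44 ± 0.07), and Wnt11 at 0.843 and 1.52 and then at 2.15 and 3.60 (0.82 ± 0.21). Since Wnt11 reached the minimum value in only 1 E7.5 library, it passed the filter through E8.5, where it was higher. Set against all 10 other ligands, the 9 canonical-type ligands made up 54.7% of the value of all Wnt ligands at E7.5 and 20.6% at E8.5. Per kb of exon these were 72.1% and 32.1%. These shares did not overlap between the stages (exact permutation test, two-sided, p = 0.333).

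In the genome, 3 of the ligands lie next to another Wnt gene. Wnt6 lies 6.19 kb from Wnt10a, Wnt3a 16.2 kb from Wnt9a and Wnt3 24.3 kb from Wnt9b. Wnt10a was at 1.07 and 1.42 at E7.5, against 1.52 and 1.41 at E8.5, with overlap, and its log2 fold change was 0.14 with a 95% interval from -0.24 to 0.52 (limma, adjusted p = 0.533). This interval lies below that of its neighbour Wnt6, which ran from 0.85 to 1.30, but the difference itself was not tested. Wnt9a (0.843, 0.152, 1.57 and 0.992) and Wnt9b (0.393, 0.862, 0.630 and 0.365) did not reach the minimum value in 2 libraries.

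Promoters were compared in windows of 300 bases, 250 before and 50 after the start of the gene (RefSeq, GRCm38.p6), for 4 ligands that fell (Wnt2, Wnt2b, Wnt3 and Wnt3a) and 3 that rose (Wnt4, Wnt6 and Wnt7a). Those of Wnt7b, Wnt8a and Porcn were not analysed here. The GC content of the 7 windows compared was 65.67% to 86.33%, against a median of 52.7% over all 32851 windows. The core of the Tcf and Lef binding motif, CTTTG, was searched on both strands, and it was present in 1 of the 7, that of Wnt3, in 2 copies on the given strand. It occurs in 53.9% of all windows and in 30.8% of the 6011 windows with a GC content of at least 65%. A match is a description of the sequence only. The Wnt3 window, chr11:103773925-103774224 on the forward strand, is shown with these copies in capitals.
Wnt3: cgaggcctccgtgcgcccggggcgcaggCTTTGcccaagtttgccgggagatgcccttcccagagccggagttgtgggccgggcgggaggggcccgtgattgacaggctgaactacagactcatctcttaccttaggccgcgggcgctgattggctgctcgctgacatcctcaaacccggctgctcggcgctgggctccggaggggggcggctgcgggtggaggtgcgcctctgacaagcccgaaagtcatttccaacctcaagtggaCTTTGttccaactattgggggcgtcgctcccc

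Genes on the receiving side of the pathway showed no common direction. Of 17 receptors and co-receptors tested, 6 were higher, 6 were lower and 5 were not called, with a median log2 fold change of 0.12. The Wnt receptor Fzd3 rose from 65.7 to 108 (0.71) and Fzd1 from 11.0 to 17.1 (0.60), while Ror1, a receptor tyrosine kinase for Wnt5a, fell from 33.0 to 8.04 (-1.91) and Fzd5 from 2.80 to 0.890 (-1.02). Among 13 secreted antagonists tested, 7 were higher and 4 were lower (median 0.56). Dkk3 rose from 6.18 to 16.4 (1.28) and Sost, which binds Lrp5 and Lrp6, from 1.75 to 4.61 (1.03), whereas the Lrp antagonist Dkk4 fell from 2.34 to 0.0262 (-1.70) and the Wnt-binding Sfrp5 from 2.34 to 0.445 (-1.21). Dkk4 and Sfrp5 reached the minimum value at E7.5 only, so they could be tested only because they were higher there. Dkk4 had 1 read over both E8.5 libraries. Among the 7 higher, Dkk2 (0.562 and 0.964, then 1.89 and 2.19) and Wif1 (0.393 and 0.456, then 2.05 and 1.20) reached the minimum value at E8.5 only. They could thus be tested only because they were higher at E8.5.

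Targets of canonical Wnt signalling in the streak and tail bud were likewise divided. Of 22 listed, 21 were tested and the other was not analysed here. Among those tested, 9 were higher, 7 were lower and 5 were not called, with a median log2 fold change of 0.12. The homeobox gene Cdx4 rose from 66.5 to 798 (3.57) and Rnf43, which removes Frizzled from the cell surface, from 3.62 to 15.9 (1.87). Cdx1 fell from 212 to 67.6 (-1.63) and the presomitic mesoderm factor Msgn1 from 75.7 to 24.9 (-1.57). Singled out for their wide use as readouts, after their values were seen, Axin2 fell from 79.9 to 65.2 (-0.29) and Sp5 from 63.7 to 39.9 (-0.66), while Lef1 rose from 154 to 212 (0.46).

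Markers of the labelled tissue and of its neighbours moved between the stages as well. Of the 11 posterior epiblast and primitive streak markers, 10 were measured (1 was not analysed here) and all were present at both stages, with 2 higher and 7 lower at E8.5. Their sums went from 1339 and 1371 to 819 and 778, a 1.70-fold lower level, and Wnt3a, itself a member, is in this list. All 14 visceral endoderm markers, led by Apob, Cubn and Apoa1, fell, and their sums went from 2564 and 2527 to 347 and 354, a 7.26-fold lower level. The 7 markers of extraembryonic ectoderm went from 222 and 201 to 86.0 and 84.8, with 5 of 6 tested lower. Most of these sums was Hand1, at 125 and 116 and then at 68.6 and 68.2. It is also in the list of lateral and extraembryonic mesoderm, whose sum rose. The ligands that fell thus moved with markers of the labelled tissue and of tissues beside it, and the part of either in the result was not tested.

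Marker lists that were higher at E8.5 stood beside the ligands that rose. Those of lateral and extraembryonic mesoderm with the allantois went from 245 and 234 to 359 and 366 (8 of 11 tested higher, 1 lower). Those of endothelium went from 97.5 and 93.0 to 231 and 212 (9 of 10 higher, 1 lower). In both lists the lower gene was among the 3 most abundant, Hand1 (from 121 to 68.4) and Sox17 (from 47.4 to 14.2). Neural plate markers went from 18.4 and 18.3 to 42.5 and 42.5 (4 of 6 tested higher, with Dbx1 at 0 in all libraries), and primitive erythroid markers from 7.92 and 6.69 to 405 and 412 (6 of 7), with Hba-x and Hbb-y at 0 at E7.5. The surface ectoderm list was lower by its sum, at 1060 and 1016 against 748 and 772, with 4 of 13 tested higher and 6 lower. The 4 that rose were Trp63 (from 0.228 to 18.1), Krt19 (from 16.4 to 48.5), Gata3 (from 8.47 to 23.1) and Grhl3 (from 12.1 to 23.1). Of these, Trp63 reached the minimum value at E8.5 only, so it could be tested only because it was higher there. The most abundant members of the list, which weigh most in its sum, all fell. These were the simple keratins Krt8 (from 248 to 204) and Krt18 (from 249 to 158) and the tight junction gene Cldn6 (from 247 to 153), with log2 fold changes of -0.28, -0.65 and -0.68. Presomitic and somitic mesoderm markers went from 778 and 762 to 403 and 405, with 3 of 11 tested higher and 6 lower and Pax1 at 0 throughout. Most of the summed fall was that of Aldh1a2 (from 322 to 34.1). The 3 that rose were Hes7 (from 26.7 to 51.8), Ripply2 (from 4.61 to 7.09) and Dll3 (from 58.5 to 69.1). Whether these cell types contribute to the values of the ligands was not tested.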

How the data were processed

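Total RNA from pooled posterior epiblasts was made into libraries with SMART-Seq2, which keeps no strand, and was sequenced as single-end reads of 75 bases. The submitters' processing notes name STAR, edgeR and the build mm10, while the study's methods name DESeq2 for normalization. The counting program and the gene annotation are not given in the sources used here. The deposited signal values are gene-level read numbers that the authors scaled by a factor per library, as edgeR does with effective library sizes (here 17792013, 19717546, 19056869 and 19153223). Whole reads were recovered for 100% of the values from the smallest step in each library.

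Values were taken as log2(value + 1), where a fold change understates that of low genes. Genes that reached a value of 1 in 2 or more libraries (13903 of 53397) were tested between the stages with limma 3.58.1 (R 4.3.3, mean-variance trend, 2 residual and 12.8 prior degrees of freedom), with Benjamini-Hochberg adjustment over these genes. Alternatives were the pseudocount, the filter, the scaling, edgeR 4.0.16 and DESeq2 1.42.0 on recovered reads, each library left out, and a replicate block. Single values were compared by exact permutation tests. Positions and lengths are from GENCODE vM21 (GRCm38), which held all 53397 identifiers.

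The genes named are all members, all other Wnt ligands, per pathway list up to 2 that rose most and 2 that fell most, up to 3 of the most abundant markers per list beside markers listed at 0, and the 3 most like Porcn. Beyond this rule, the markers that rose in the surface ectoderm and presomitic lists were named after their values were seen. So were the antagonists Dkk2 and Wif1, and Fst, Fgf8 and Evx1 of the posterior epiblast list. Members and lists were chosen with earlier results of these data known. Replicates are separate pools. The limma p-value of a gene rests partly on its own spread between these pools (2 residual degrees of freedom). It rests more on the spread shared with other genes (12.8 prior degrees of freedom).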

Additional observations from a re-analysis of the deposited data

How the results depend on the processing

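All 10 genes kept their direction and their side of the threshold in each alternative in which they were tested, 128 values in all. The highest adjusted p was 0.0441, for Wnt4. With a minimum value of 5 in 2 libraries, Wnt4 and Wnt7b were not tested, which left 2 members higher. The fold limit depended on the scale: with a pseudocount of 4, 1 member was higher and 3 were lower past it, and with a pseudocount of 0.1, edgeR or DESeq2, 4 and 5. Without a composition factor, 3843 genes were higher and 2568 lower (3562 and 3671 with it), and the median log2 fold change of all genes was 0.07.

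The log2 ratio of the summed ligands was -0.87, with -1.07 per kb of exon, -0.78 without a composition factor and -0.91 to -0.82 with each library left out. The difference in the share of Wnt3a, -0.547 percentage points, became 4.13 per kb of exon, and ranged from -1.13 to 0.0388 with a library left out, the latter without E8.5 replicate 1. Of the counts of called genes in the pathway lists, 8 moved by over 1.5 times, among them the lower genes of Wnt secretion and acylation, which numbered 4 but were 1 without E8.5 replicate 1, and 1 without a composition factor, and 2 when E8.5 replicate 2 was left out. Receptors higher were 3 without E8.5 replicate 2 in place of 6.

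No pairing by replicate number was seen, as the deviations of same-numbered libraries correlated at -0.00246 over 13903 genes. Since such deviations also hold counting error, this cannot exclude a pairing. With the replicate block 4 members were higher and 6 lower, and 3598 and 3660 of all genes. Wnt4 at E7.5 (24 reads) and Wnt7b at E7.5 (11 reads) limit the precision of their folds.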

Other observations

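Of the 10 other Wnt ligands, 6 did not reach the minimum value in 2 libraries. From E7.5 to E8.5, the reads of Wnt16 numbered 5 and 32, those of Wnt8b 18 and 7 and those of Wnt10b 0 and 1, while Wnt1 had none in any library. Wnt9a differed widely between the E7.5 replicates, at 15 and 3 reads. The Wnt8a paralog Wnt8b thus stayed near the lower limit of the data at both stages, with normalized counts of 0.562, 0.406, 0.315 and 0.0522.

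The evenness of the 9 canonical-type ligands was described by an effective number of ligands, the inverse of the summed squared shares. It was 3.32 and 3.40 at E7.5, against 3.94 and 3.88 at E8.5, and per kb of exon 2.89 and 2.94 against 3.66 and 3.61. The value was thus spread over somewhat more ligands in each E8.5 library than in each E7.5 library (exact permutation test, two-sided, p = 0.333, the smallest possible).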
